A study of Homo sapiens with 15 samples.

Results

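The genes described here are the replication-dependent histone genes, taken by a rule on gene names. A gene was a member if a probe set of the array carried a single platform symbol beginning with H1- and a digit, or with H2AC, H2BC, H3C or H4C and a digit. The rule gave 50 genes of the 19775 with a single-symbol probe set: 11 of the H1 class, 9 of H2A, 14 of H2B, 7 of H3 and 9 of H4. Where a gene had several such probe sets, the one with the highest average signal was used. The label does not hold for every member. H1-6, H1-7, H1-8 and H2BC1 are known from germ cells, H1-10 is a linker histone made independently of DNA replication, H1-10-AS1 is an antisense RNA, and H1-9P, H2AC5P and H4C10P are 3 pseudogenes. A further 19 genes with such names were seen only by probe sets shared among several genes and are not members.

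The study measured 15 Affymetrix U133 Plus 2.0 arrays of 9 established human lymphoid lines, with no treatment named in the labels. L540, its relative L540Cy, HDLM2, KM-H2, L1236 and L428 are labelled as classical Hodgkin lymphoma, Namalwa as Burkitt lymphoma, SU-DHL-4 as a B cell non-Hodgkin lymphoma and Reh as a B cell acute lymphoblastic leukaemia. There were 2 biological duplicate arrays of 6 lines and 1 array each of L540, L540Cy and SU-DHL-4. L540Cy is known from background as a subline of L540, and each line is a single tumour's culture, so a line is 1 replicate of its disease.

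Core histones H2A, H2B, H3 and H4 form the protein spool of the nucleosome, and H1 linker histones bind the DNA between nucleosomes. The replication-dependent genes for them lie in clusters, lack introns and are switched on in S phase, when new DNA must be packaged. NPAT drives their transcription, and most of their messages end in a stem-loop bound by SLBP in place of a poly(A) tail, although polyadenylated forms exist. The labels do not say how the RNA was primed for labelling. In a bulk culture, fewer cells in S phase and less histone RNA per cell cannot be told apart.

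The regions upstream of the members whose signal varied most are shown first, because H1-2, H2AC6 and H2BC12, of different classes, rose and fell together across the lines. RefSeq (GRCh38.p14) held a promoter for 43 of the 50 members, 38 of them on chromosome 6, 2 each on chromosomes 1 and 3, and 1 on chromosome 12. The 250 bases before each start were searched on both strands for the octamer ATTTGCAT, for CCAAT, for TATAAA and for AAACACA, a box known from H1 promoters. None of these strings lies inside another, but matches could overlap at their ends. Matches on either strand are in capitals below, and a match on the reverse strand appears as its reverse complement.

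The upstream region of H1-2 (chr6:26056471-26056720, minus strand), the linker histone gene with the widest range, is shown with those of H2AC6 (chr6:26123922-26124171, plus strand) and H2BC12 (chr6:27146859-27147108, minus strand), the widest of H2A and H2B. H2BC17 (chr6:27893175-27893424, plus strand) was high in the L540 array only, and H4C8 (chr6:26285535-26285784, minus strand) had the widest range of H4 and none of the 4 strings.
H1-2: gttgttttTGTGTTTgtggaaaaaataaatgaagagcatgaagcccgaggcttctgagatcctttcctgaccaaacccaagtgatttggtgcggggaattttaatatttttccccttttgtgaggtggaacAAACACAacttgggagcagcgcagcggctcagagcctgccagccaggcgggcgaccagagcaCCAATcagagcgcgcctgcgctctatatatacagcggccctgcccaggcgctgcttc
H2AC6: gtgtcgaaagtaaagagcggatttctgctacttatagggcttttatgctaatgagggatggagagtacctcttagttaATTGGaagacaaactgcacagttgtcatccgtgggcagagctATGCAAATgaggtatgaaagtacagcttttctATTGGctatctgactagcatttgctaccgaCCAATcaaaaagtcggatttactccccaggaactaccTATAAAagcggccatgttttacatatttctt
H2BC12: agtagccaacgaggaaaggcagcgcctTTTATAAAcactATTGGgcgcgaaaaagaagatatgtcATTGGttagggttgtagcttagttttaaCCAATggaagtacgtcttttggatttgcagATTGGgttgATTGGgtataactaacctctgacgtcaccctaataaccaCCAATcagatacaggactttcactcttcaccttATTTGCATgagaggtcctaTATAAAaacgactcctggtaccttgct
H2BC17: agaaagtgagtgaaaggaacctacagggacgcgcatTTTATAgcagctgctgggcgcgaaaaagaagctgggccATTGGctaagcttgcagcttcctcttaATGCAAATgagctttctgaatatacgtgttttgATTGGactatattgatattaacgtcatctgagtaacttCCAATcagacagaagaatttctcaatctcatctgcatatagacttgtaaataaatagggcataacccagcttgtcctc
H4C8: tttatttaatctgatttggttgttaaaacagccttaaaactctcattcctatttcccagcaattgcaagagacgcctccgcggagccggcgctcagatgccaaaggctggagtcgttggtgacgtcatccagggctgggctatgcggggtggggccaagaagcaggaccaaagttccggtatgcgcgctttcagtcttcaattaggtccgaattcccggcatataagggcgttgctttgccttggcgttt

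The octamer lay in 6 of 8 H2A and 10 of 13 H2B promoters, and in 0 of the H1, H3 and H4 promoters of members. Over all 43 members its share was 37.2%, against 1.66% of 27305 promoters of the same length. Among H2A and H2B members, 12 of the 14 whose line means spanned at least 2 log2 held it, against 4 of the other 7. CCAAT lay in 86.0% of member promoters against 33.0% of all promoters, and TATAAA in 65.1% against 11.1%. The string AAACACA lay in 7 of 9 H1 promoters against 4.95% of all. H2AC6 and H2BC4 start back to back, 246 bases apart. So do H2AC14 and H2BC14 (245 bases), H2AC17 and H2BC17 (240) and H2AC15 and H2BC15 (194). The upstream windows of each pair hold largely the same DNA on opposite strands, so the promoters counted are not independent. The octamer between H2AC14 and H2BC14 was counted once on each side of the split by range.

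All values are RMA log2 signals, in which 1 unit is a doubling, and signals of different probe sets are not set against one another. The array medians lay between 5.50 and 5.57. A mean signal of 6 over the 15 arrays is used here to divide brighter from dimmer genes. By this measure 14 members were bright: H1-10 and H1-2 of H1, H2AC14, H2AC17, H2AC25 and H2AC6 of H2A, H2BC12, H2BC12L, H2BC5, H2BC6 and H2BC9 of H2B, H3C8 of H3, and H4C11 and H4C9 of H4. Another 21 members stayed under 6 on every array, among them the 3 pseudogenes, H1-6, H1-7 and H2BC1, and their line means spanned at most 1.56 log2. The remaining 15 had a mean under 6 but reached it on at least 1 array. Of the 50 members, 11 rest on probe sets whose names end in _x_at or _s_at, which can bind several near-identical genes, and 9 of these 11 were among the bright members. Their identity as single genes is uncertain, H2BC5, H2BC6, H2BC9, H2BC12L, H2AC6, H2AC14, H3C8 and H4C11 among them.

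**Figure D1:**
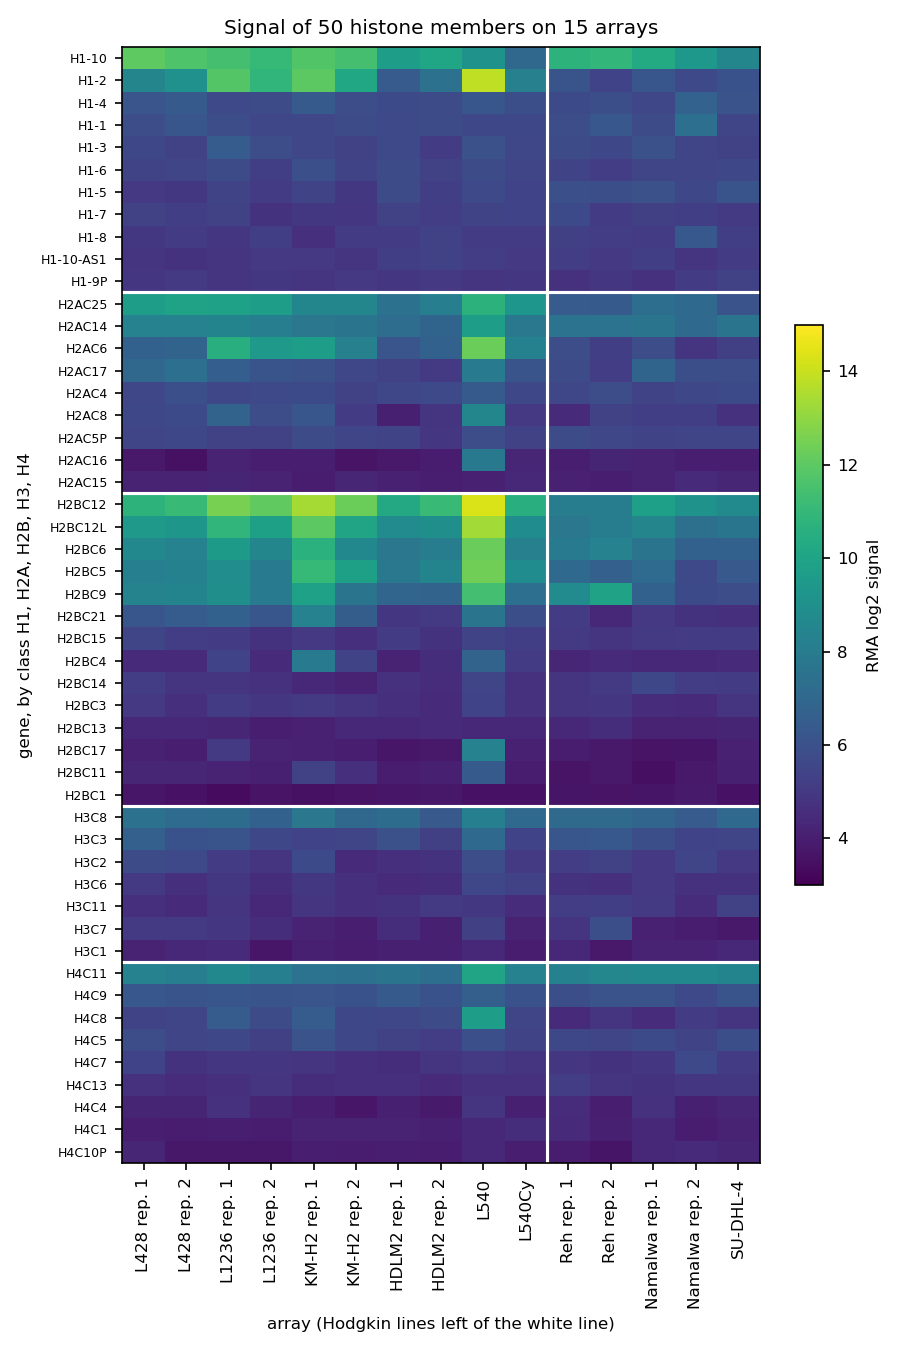
RMA log2 signal (colour) of the 50 members, in rows by histone class and falling mean, on the 15 arrays in columns, with the Hodgkin lines left of the white vertical line. H2A and H2B hold most members that vary between lines, and the L540 column is the brightest for 25 of the 50 members.

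Among the linker histones, H1-2 had the widest range of all members. It read 8.47 and 9.09 on the 2 arrays of L428, 11.77 and 10.88 in L1236, 11.96 and 10.16 in KM-H2, 6.46 and 7.47 in HDLM2, 13.84 in L540 and 8.25 in L540Cy. The 5 non-Hodgkin arrays read 6.10 and 5.42 in Reh, 6.20 and 5.63 in Namalwa and 6.01 in SU-DHL-4. The ranges of the 2 groups did not overlap, and the line means spanned 8.09 log2, or 5.57 log2 without the L540 array. HDLM2 lay closest to the non-Hodgkin lines, whose arrays all lay between 5.42 and 6.20.

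H1-10, the replication-independent linker histone, followed another order. It was highest in L428 at 12.02 and 11.67, KM-H2 at 11.74 and 11.46 and L1236 at 11.45 and 11.02, then came Reh at 10.77 and 10.93, Namalwa at 10.31 and 9.41 and HDLM2 at 9.70 and 10.07. L540 at 9.15, SU-DHL-4 at 8.53 and L540Cy at 7.06 were lowest, so the disease groups overlapped. Of the other 9 members of the H1 class none was called in the test among lines described below. H1-5 read 4.94 to 5.80 on the 10 Hodgkin arrays, with a median of 5.32, and 5.62 to 6.09 on the 5 non-Hodgkin arrays. H1-1 and H1-8 were highest on Namalwa replicate 2, at 7.38 and 6.32, while the other array of that line read 5.75 and 5.14.

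In the H2A class, H2AC6 had the widest range. Its signals were 6.70 and 6.83 in L428, 10.53 and 9.45 in L1236, 9.68 and 8.23 in KM-H2, 6.16 and 6.74 in HDLM2, 12.33 in L540 and 8.28 in L540Cy. Reh read 5.83 and 5.23, Namalwa 5.83 and 4.83, and SU-DHL-4 5.28. Every Hodgkin array thus lay above every non-Hodgkin array, with HDLM2 and L428 nearest to them. H2AC25 was tight between duplicates in 5 lines, at 9.66 and 9.91 in L428, 9.86 and 9.74 in L1236, 8.50 and 8.50 in KM-H2, 6.43 and 6.40 in Reh and 7.36 and 7.10 in Namalwa, and read 7.49 and 8.15 in HDLM2. It stood at 10.70 in L540, 9.30 in L540Cy and 6.07 in SU-DHL-4, again without overlap between the groups. A second probe set of H2AC25 was dim and flat, with line means of 4.57 to 5.38.

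H2AC16 was raised on 1 array. It read 7.86 in L540 and 3.55 to 4.29 on the other 14 arrays. H2AC8 was likewise highest in L540, at 8.49, against 4.04 to 6.83 elsewhere. The pseudogene H2AC5P and the genes H2AC4 and H2AC15 spanned less than 1 log2 between lines.

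The H2B class held the most members whose signal differed between lines. H2BC12 read 10.76 and 11.09 in L428, 12.54 and 12.08 in L1236, 13.37 and 12.29 in KM-H2, 10.23 and 11.13 in HDLM2, 14.30 in L540 and 10.55 in L540Cy. The non-Hodgkin arrays read 8.05 and 8.11 in Reh, 9.80 and 9.18 in Namalwa and 8.76 in SU-DHL-4, all below the lowest Hodgkin array. H2BC12 rests on 1 probe set without the _x_at or _s_at ending.

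H2BC5 read 8.18 and 8.28 in L428, 8.87 and 7.90 in L1236, 11.03 and 9.80 in KM-H2, 7.78 and 8.43 in HDLM2, 12.38 in L540, 8.83 in L540Cy, 7.12 and 6.68 in Reh, 7.20 and 5.67 in Namalwa and 6.35 in SU-DHL-4. H2BC12L ran from 8.80 to 13.32 on the 10 Hodgkin arrays, with a median of 9.66, and from 7.42 to 8.47 on the 5 non-Hodgkin arrays, with 11.96 on KM-H2 replicate 1. In both, as in H2BC12, L540 and KM-H2 replicate 1 were highest and the groups did not overlap. H2BC9 differed in that Reh read 8.81 and 9.93, above L428 at 8.38 and 8.40, while Namalwa and SU-DHL-4 lay between 5.68 and 6.73. H2BC17 read 8.32 in L540 and 3.63 to 5.03 on the other arrays, and H2BC4 read 7.91 on KM-H2 replicate 1, 6.81 in L540 and 4.14 to 5.44 elsewhere.

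In the H3 class the line means of no member spanned 2 log2 by the probe sets used, but 5 of the 7 members stayed under 6 on every array. A second probe set of H3C6, not used, had line means of 3.51 to 6.47. H3C8, the bright member of the class, ran from 6.33 to 8.16 on the Hodgkin arrays, with a median of 7.22, and from 6.46 to 7.13 on the non-Hodgkin arrays. H3C3 ran from 5.25 to 7.09, with a median of 5.80, against 5.41 to 6.31, and H3C7 from 4.03 to 5.28, with a median of 4.59, against 3.80 to 5.87. The groups overlapped in all 3, and H3C3 and H3C8 were highest in L540 while H3C7 was highest on Reh replicate 2.

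Of the H4 members, H4C8 read 9.68 in L540, 5.47 to 6.48 on the other Hodgkin arrays and 4.43 to 5.11 on the non-Hodgkin arrays. A second probe set of H4C8 read 9.22 in L540 and 4.22 to 5.78 in the means of the other lines. H4C11 read 9.99 in L540 and 7.36 to 8.62 elsewhere, lowest in HDLM2 and KM-H2, with the non-Hodgkin arrays at 8.29 to 8.60. H4C4 ran from 3.74 to 4.82 over all arrays. One probe set shared by 14 H4 genes, which is no member, read 11.95 to 13.46 on all arrays, highest in Reh. Of the others with the same 14 genes, those at 9.44, 5.88 and 4.40 in L540 were highest there. The last was highest on KM-H2 replicate 1, at 4.94.

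**Figure D2:**
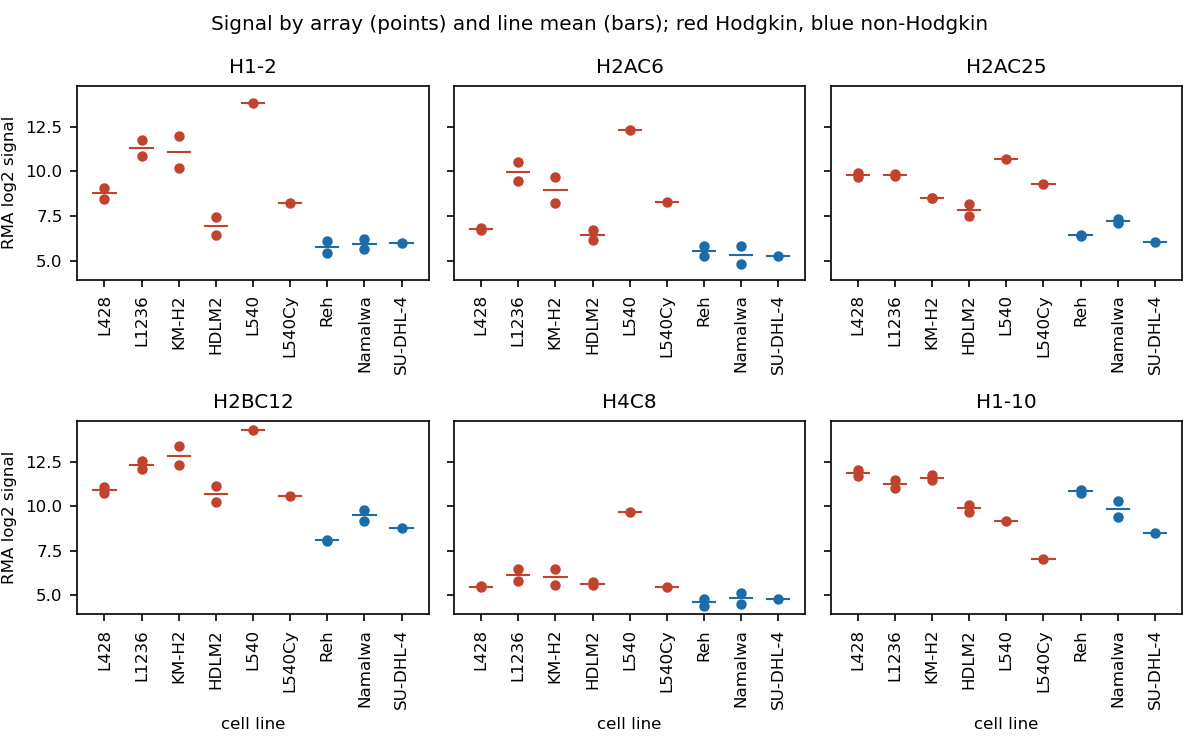
RMA log2 signal (vertical axis) of 6 members by cell line (horizontal axis), with a point for each array and a bar at the line mean, Hodgkin lines in red and non-Hodgkin lines in blue. H1-2, H2AC6, H2AC25, H2BC12 and H4C8 peak in L540 and are lower in every non-Hodgkin line than in any Hodgkin line, and H1-10 has its lowest value in L540Cy.

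The test among lines asked which members differed over the 9 line means by more than the duplicate arrays of 6 lines did, with limma's F test and Benjamini-Hochberg adjustment over all genes at a threshold of 0.05. Members past it are termed called. It called 22 of the 50 members (44%), against 51.9% of all genes tested, so the share was not above the background. The level of the members bears on this count. Of the 14 bright members 12 were called (85.7%), against 74.2% of all bright genes, and of the 36 dimmer ones 10 (27.8%), against 22% of all dimmer genes. By class the test called 2 of 11 H1, 6 of 9 H2A, 10 of 14 H2B, 2 of 7 H3 and 2 of 9 H4 members. The smallest adjusted p among them was 1.54e-06 for H2AC25. Without the probe sets ending in _x_at or _s_at 12 of 39 members were called, against 46.3% of all genes in that setting.

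The size of the variation was uneven. The line means of 19 members spanned at least 2 log2, and 12 members still did when the L540 array was left out. The median range was 2.87 log2 in H2B and 2.79 log2 in H2A, against 1.15 log2 in H3, 0.80 log2 in H1 and 0.67 log2 in H4. Members under 6 on every array made up 5 of 14 in H2B, 2 of 9 in H2A, 5 of 7 in H3, 4 of 11 in H1 and 5 of 9 in H4. Class and signal level cannot be told apart in these medians. Over the 8 lines of origin, with L540 and L540Cy averaged, the 19 variable members had a median pairwise correlation of 0.651 (171 pairs), and 0.588 over 7 lines without L540. H1-2 correlated with H2BC12L at 0.974, with H2AC6 at 0.967 and with H2BC12 at 0.95, and with H4C11 at 0.035. The pairs ran from -0.674 to 0.974. These correlations are descriptions over few lines, and probe sets of similar sequence can share signal. The 19 members were picked for their range, some through the L540 array alone, which favours shared peaks. Other variable genes were not correlated for comparison. The back-to-back pair H2BC4 and H2AC6 had a correlation of 0.755, H2AC17 and H2BC17 0.559, H2AC15 and H2BC15 0.227 and H2AC14 and H2BC14 0.161.

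Hodgkin against non-Hodgkin lines was the study's own division. Means of 5 Hodgkin lines of origin were set against 3 non-Hodgkin lines with limma. H1-2 averaged 9.84 ± 1.91 in the Hodgkin lines (SD, n = 5) and 5.89 ± 0.12 in the others (SD, n = 3), a difference of 3.94 ± 1.03 log2 (SE) with an adjusted p of 0.142. H2BC12 differed by 3.06 ± 0.59 log2 (SE), from 11.83 ± 0.97 to 8.77 ± 0.70 (SD, n = 5 and 3), with limma's adjusted p at 0.0615. H2AC6 differed by 3.11 ± 0.97 log2 (adjusted p = 0.21) and H2AC25 by 2.61 ± 0.57 log2 (SE, adjusted p = 0.0881). These differences are of several log2 and the lines did not overlap, but the Hodgkin lines varied widely among themselves.

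No member was called, 0 of 50, in a comparison that called 1.37% of all genes. At an unadjusted p under 0.05, 10 members were higher in the Hodgkin lines (20%), against 7.03% of all genes: H1-2, H2AC6, H2AC25, H2BC5, H2BC6, H2BC12, H2BC12L, H2BC21, H4C8 and H4C9. At the same level H1-5, H3C11 and H4C13 were lower (6%), against 7.18% of all genes. All Hodgkin lines lay above all others in 9 members (18%), against 5.17% of genes, and below in 3 members (6%), against 5.5%. The median difference was 0.07 log2 over the members and -0.02 log2 over all genes. Over the 14 bright members it was 1.48 log2, with 13 of them above 0, against 0.0013 log2 over all bright genes. Some of these, H1-2 and H2AC6 among them, reached the mean of 6 only through Hodgkin arrays. Their non-Hodgkin means were 5.89 and 5.38. H4C11, of the H4 class, differed by -0.32 ± 0.38 log2 (SE). H2BC12 was called in 6 of 33 alternative settings, H2AC25 in 3 and H1-2 in 2.

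**Figure D3:**
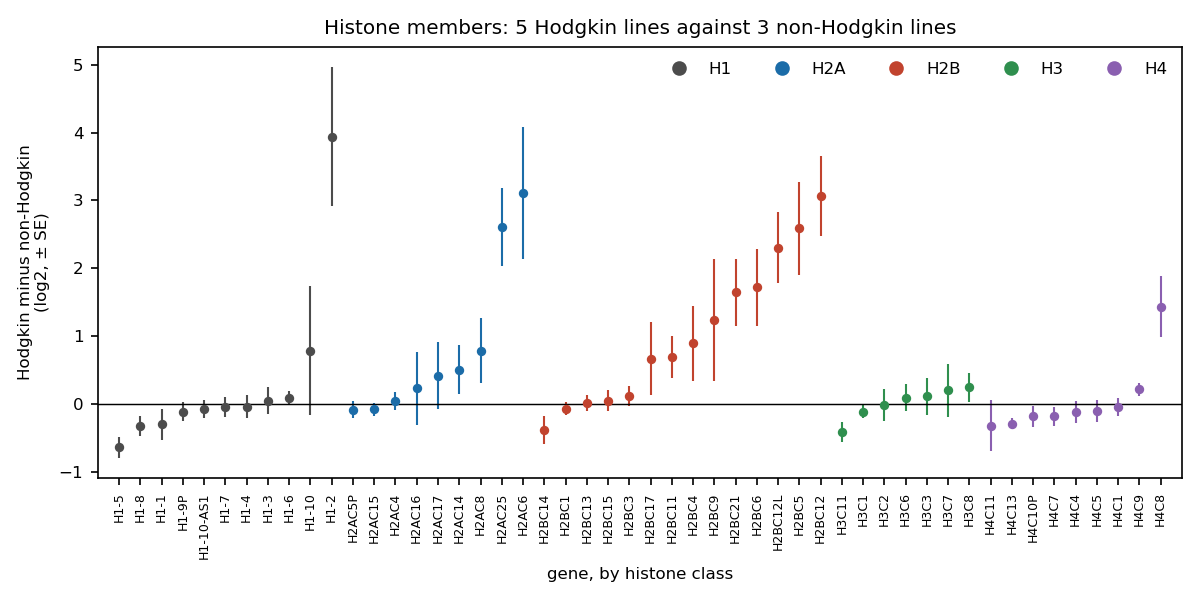
Difference between the means of 5 Hodgkin and 3 non-Hodgkin lines (vertical axis, log2, bars ± SE) for each of the 50 members along the horizontal axis, coloured and ordered by class. The differences run from -0.63 for H1-5 to 3.94 for H1-2, most H2B members lie above 0, and no member was called after adjustment.

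Each line was then set against the mean of the other 7 lines of origin in the same limma fit, so the 8 comparisons share arrays. In L540, averaged with L540Cy, 17 members were higher (34%, against 11.8% of genes) and 1, H1-10, was lower (2%, against 13.8%). H2AC6 was 3.40 ± 0.40 log2 (SE) above the other lines (adjusted p = 0.000162) and H1-2 3.07 ± 0.44 log2 above (adjusted p = 0.000605). H1-10 was at -2.44 ± 0.22 log2 (SE, adjusted p = 3.11e-05). With the L540 array left out and L540Cy alone in its place, 2 members were called: H2AC25 at 1.35 ± 0.22 log2 higher (adjusted p = 0.00178) and H1-10 at -3.48 ± 0.30 log2 (adjusted p = 3.7e-05). Of the 17 rises, H2AC25 alone was called without the L540 array.

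In KM-H2, 10 members were higher (20%, against 15.2% of genes) and 3 lower (6%, against 12.9%). H1-2 was 3.09 ± 0.44 log2 (SE) above the other lines (adjusted p = 0.000524) and H2BC5 2.56 ± 0.41 log2 above (adjusted p = 0.00115). H4C11 was lower at -0.85 ± 0.14 log2 and H2BC14 at -0.70 ± 0.15 log2. Without KM-H2 replicate 1 the 13 calls fell to 8. In L1236, 5 members were higher (10%, against 14.4%), with H1-2 at 3.39 ± 0.44 log2 (adjusted p = 0.000342) and H2AC6 at 3.05 ± 0.40 log2 (adjusted p = 0.000349), and 0 were lower by limma (against 10.6% of genes). At an unadjusted p under 0.05, 0 members were lower in L1236, against 15.3% of genes. In L428, 4 were higher (8%, against 12%), led by H1-10 at 1.84 ± 0.22 log2 and H2AC25 at 1.81 ± 0.16 log2, and 2 were lower (4%, against 11.7%), H1-5 and H2AC16. Without L428 replicate 2 these 6 calls fell to 2.

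HDLM2 was the Hodgkin line with falls only: 0 members were higher by limma (against 14% of genes) and 6 were lower (12%, against 13%), a share near the background. At an unadjusted p under 0.05, 0 were higher, against 17.5% of genes, and 15 were lower (30%), against 17.4%. H1-2 was at -1.60 ± 0.44 log2 (SE, adjusted p = 0.0226) and H2AC8 at -1.17 ± 0.34 log2 (adjusted p = 0.0288). Without KM-H2 replicate 2 HDLM2 had 11 calls, and with the L540 array left out it had 3.

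In Reh, 2 members were higher (4%, against 11.0%), H2BC9 at 1.67 ± 0.52 log2 (adjusted p = 0.0448) and H3C7 at 0.97 ± 0.23 log2, and 9 were lower (18%, against 10.8%), led by H2BC12 at -2.98 ± 0.30 log2 and H1-2 at -2.97 ± 0.44 log2 (SE). Reh replicate 1 stood apart from its duplicate, with the B cell gene MS4A1 at 11.47 against 4.12. Reh had 7 calls without that array and 4 without Reh replicate 2. It had 6 without L428 replicate 1 and 7 without L428 replicate 2.

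In Namalwa, H2BC14 alone was higher (2%, against 11.3%), at 0.54 ± 0.15 log2, and 12 members were lower (24%, against 16.5%), with H1-2 at -2.79 ± 0.44 log2 and H2AC6 at -2.28 ± 0.40 log2 (SE). Its 13 calls fell to 6 without Namalwa replicate 2, an array whose upper quartile of 7.31 was below the 7.54 to 7.72 of the others. In SU-DHL-4, 0 members were higher by limma (against 8% of genes) and 7 were lower (14%, against 9.72%), with H1-2 at -2.69 ± 0.60 log2 and H2AC25 at -2.44 ± 0.22 log2 (SE). At an unadjusted p under 0.05, 3 members were higher in SU-DHL-4 (6%, against 12.8% of genes). Without KM-H2 replicate 2 SU-DHL-4 had 11 calls.

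By class, the level of a line was taken as the median over members of its deviation from each member's own mean over the 8 lines of origin. L540 was highest in all 5 classes, by 2.01 log2 in H2B, 1.87 in H2A, 0.71 in H3, 0.33 in H4 and 0.14 in H1. KM-H2 stood at 0.80 in H2B, with 1.53 on replicate 1 and 0.11 on replicate 2, and at -0.05 in H2A. Namalwa was lowest in H2B at -0.62, and HDLM2 was lowest in H2A at -0.39, in H3 at -0.25 and in H4 at -0.17. These lowest lines depended on the dim members. Over bright members only, the lowest were SU-DHL-4 in H2B at -1.83 and Reh in H2A at -1.22. In H3 (1 bright member) it was Namalwa at -0.43, and in H4 (2 bright members) KM-H2 at -0.37. L540 stayed highest in all 5 classes, at 1.11 in H4 and at 2.20 in H1, where KM-H2 was at 2.03. The H1 level rests on 2 bright members that differed in L540. H1-2 was highest there at 13.84, while H1-10 read 9.15 there and 12.02 on L428 replicate 1. No test applies, since members of a class are not replicates.

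The L540 array and that of its subline L540Cy differed more in these genes than in most. Of the 50 members 25 had their highest signal of all 15 arrays in L540 (50%), against 6.27% of all genes: 8 of 9 in H2A, 8 of 14 in H2B, 4 of 7 in H3, 4 of 9 in H4 and 1 of 11 in H1.

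H1-2 read 13.84 in L540 and 8.25 in L540Cy, a difference of -5.60 ± 0.82 log2 (SE, adjusted p = 0.0117), which is 48.3-fold. H4C8 read 9.68 and 5.49, a difference of -4.20 ± 0.46 log2 (adjusted p = 0.00225). H2BC17 read 8.32 and 4.12, at -4.20 ± 0.33 log2 (adjusted p = 0.000231), and H2AC16 7.86 and 4.29, at -3.58 ± 0.26 log2 (adjusted p = 0.00014). In H1-2, H4C8 and H2BC17 the L540Cy value lay within the range of the single arrays of the other Hodgkin lines. In H2AC16 it lay just above the highest of these arrays, at 4.16. For H4C8 it was near the lowest such array, at 5.47, and just below the lowest line mean, 5.50 in L428.

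In this comparison 12 of 50 members were lower in L540Cy (24%), against 0.845% of all genes, and 0 were higher by limma (against 0.642% of genes). At an unadjusted p under 0.05, 0 were higher, against 5.4% of genes, and 24 lower (48%), against 5.85%. The others called were H1-10, H2AC14, H2AC6, H2AC8, H2BC11, H2BC12, H2BC12L and H4C11. H2BC12 fell from 14.30 to 10.55 and H2AC6 from 12.33 to 8.28. None of the 7 H3 members was called, by limma, although their median difference was 0.78 log2 in the same direction. The median L540Cy minus L540 was -0.78 log2 over the 50 members and -0.02 log2 over all genes. In 5 of the 12, H2AC16, H2AC8, H2BC11, H2BC17 and H4C8, the L540Cy value lay under that array's median of 5.55, where RMA compresses differences, so the size of these differences is uncertain. There was 1 array of each line, so the spread was taken from the duplicates of the other lines, and line and array cannot be told apart. H1-2, H2AC16, H2BC12, H2BC17 and H4C8 kept their calls in 15 of 15 alternative settings. H1-10 (adjusted p = 0.0419) lost its call in 8, all with 1 array of L428, L1236, KM-H2 or HDLM2 left out (0.0617 to 0.0785), and H2AC6 (0.0301) in 4, with 1 array of L428 or HDLM2 left out (0.0503 to 0.0676).

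Other genes of the cell cycle also differed between these arrays. Of 20 S phase and proliferation genes 6 were called as lower in L540Cy, with a median of -0.999 log2. CCNA2, which encodes cyclin A2, read 11.29 in L540 and 9.40 in L540Cy (adjusted p = 0.00498), and ORC1, of the origin recognition complex, 8.57 and 6.93. Of the 20 histone chaperones NASP, which carries H3 and H4, was lower, at 11.31 and 9.66. Of 10 genes listed as histone variants H2AX and H1-10 were lower, and H1-10 is also one of the members called. The part of these listed genes in the histone difference was not tested. Across lines the S phase list had a median deviation of -0.08 log2 in L540, -0.89 in L540Cy and 0.39 in SU-DHL-4. It was 0.16 log2 in L428, 0.09 in L1236, -0.23 in KM-H2, -0.49 in HDLM2, 0.29 in Reh and 0.19 in Namalwa. The class levels of SU-DHL-4 were -0.20 log2 in H2A and -0.36 log2 in H2B, and those of HDLM2 were -0.39 and -0.27 log2. Whether class levels follow the S phase list across lines was not tested.

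**Figure D4:**
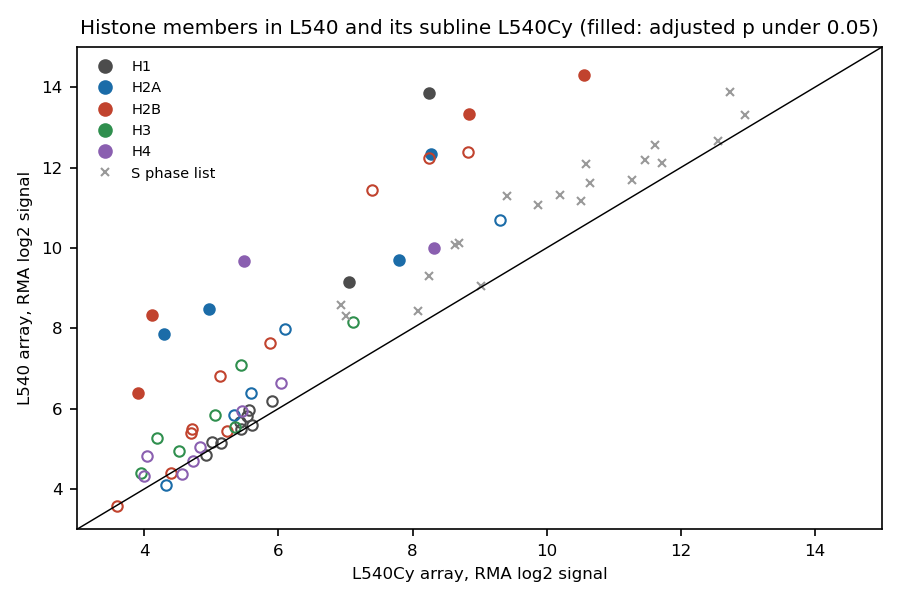
RMA log2 signal on the L540 array (vertical axis) against the L540Cy array (horizontal axis) for the 50 members, coloured by class, with the 20 S phase genes as grey crosses and the line of equal signal. Filled points are the 12 members called as lower in L540Cy, and H1-2 lies farthest from the line, at 13.84 and 8.25.

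Of the 20 probe sets left out because they name 2 to 14 histone genes each, 14 were highest in L540. One for H2AC18 and H2AC19 read 14.39 in L540 and 10.41 in L540Cy. A second probe set of H3C6 read 6.47 in L540 against at most 4.62 elsewhere, while the brighter one used here read 5.54.

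The duplicate arrays of some lines differed in these genes beyond the spread of other genes. In KM-H2, replicate 1 exceeded replicate 2 by a median of 0.92 log2 over the 14 bright members, and by over 1 log2 in 7 of them, against 0.494% of all bright genes. H2BC9 read 9.87 and 7.63, H2BC6 10.67 and 8.60 and H1-2 11.96 and 10.16 on the 2 arrays. Outside the bright members, H2BC4 read 7.91 and 5.44. L1236 had a median of 0.52 log2, with 4 of 14 over 1 log2 against 0.229% of bright genes, and Namalwa 0.76 log2, with 4 of 14 against 4.98%. L428, at -0.02 log2, HDLM2, at -0.22 log2, and Reh, at -0.03 log2, had no bright member higher on replicate 1 by over 1 log2. On replicate 2, H1-2 was higher by over 1 log2 in HDLM2 (-1.01, as replicate 1 minus 2) and H2BC9 in Reh (-1.12). The S phase list had a median of 0.02 log2 between the KM-H2 arrays.

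**Figure D5:**
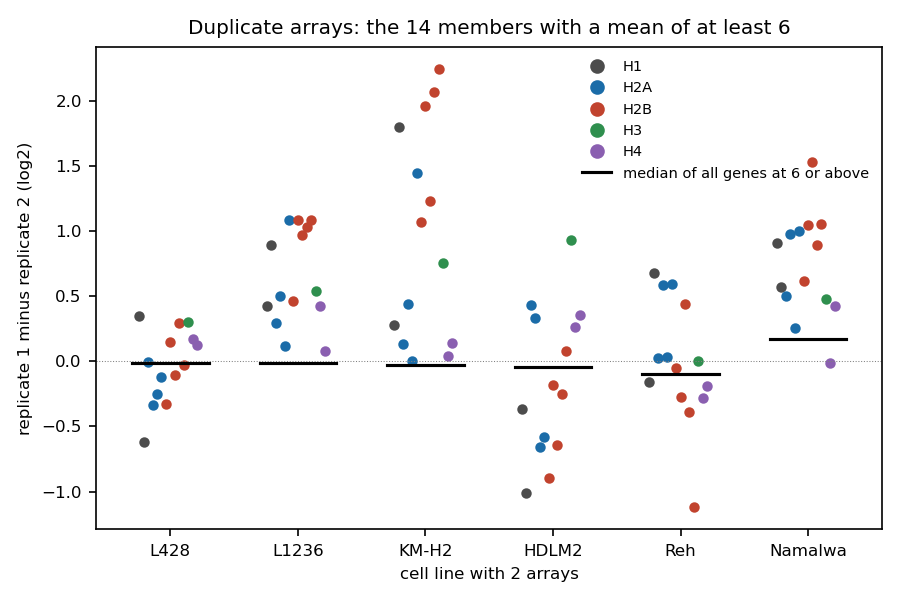
Replicate 1 minus replicate 2 (vertical axis, log2) for the 14 bright members in each of the 6 lines with 2 arrays (horizontal axis), coloured by class, with a black bar at the median of all genes with a mean of at least 6. The members of KM-H2, L1236 and Namalwa lie mostly above 0, and 7 members of KM-H2 exceed 1.

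Genes that make, process and load histone messages were set beside the members, from lists chosen with earlier results known. In the comparison of Hodgkin with non-Hodgkin lines limma called 0 of 21 genes of histone transcription and message processing. At an unadjusted p under 0.05, 1 of these was higher and 4 were lower. Limma called 0 of 20 chaperones (0 higher and 5 lower at that level) and 0 of 10 histone variants (0 and 0). It called 0 of 20 S phase genes (0 and 6). Of all genes, 7.03% were higher and 7.18% lower at that level, against 25% of the chaperones and 30% of the S phase genes lower. The median differences of the lists were -0.02, -0.41, 0.21 and -0.44 log2, against -0.02 log2 for all genes.

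SLBP, the stem-loop binding protein, averaged 11.89 ± 0.21 in Hodgkin and 12.20 ± 0.13 in non-Hodgkin lines (SD, n = 5 and 3), a difference of -0.32 ± 0.14 log2 (SE, limma's adjusted p = 0.373). NPAT differed by 0.01 ± 0.36 log2 (adjusted p = 0.995). POU2AF1, a B cell coactivator that works with octamer-binding proteins, was at 10.86 to 13.29 in L1236 and the non-Hodgkin lines and at 3.84 to 4.57 in the other Hodgkin lines, L540 included (adjusted p = 0.103). CCNE2, a cyclin of the G1 to S transition, differed by -1.36 log2 (adjusted p = 0.26). The largest differences in the other lists were those of ASF1A at -1.20 and NASP at -0.92 among chaperones, H2AJ at 1.69 and H1-10 at 0.79 among variants, and MCM4 at -1.45 and MCM5 at -0.92 log2 in the S phase list, with adjusted p of 0.06 to 0.748.

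The lineage labels were checked by markers. Of 5 B cell markers CD79A, CD79B and CD22 were lower in the Hodgkin lines, and the marker means were 5.63 to 6.66 in the Hodgkin and 10.2 to 11.5 in the non-Hodgkin lines. TNFRSF8, which encodes CD30, and IRF4 were higher, and the 4 Hodgkin markers averaged 9.81 to 12.4 against 5.65 to 6.84. None of 5 T cell, 4 myeloid or 4 epithelial and fibroblast markers was called by limma (0 at an unadjusted p under 0.05 in each). CD2 read 10.19 to 11.30 in HDLM2 and CD3D 8.44 to 8.75 in KM-H2.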

How the data were processed

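RNA of 15 arrays was measured. The authors deposited a log2 signal for each probe set, made with RMA, per the submitters' processing notes. RMA subtracts background, normalizes between arrays and summarises probes, and it compresses differences near the background. The version of the software is not given in the sources used here. Of 54675 probe sets, 62 controls, 11721 without a symbol and 1801 with several were left out. Of the 41091 left, 41037 matched RefSeq (GRCh38.p14) and 0 were renamed, which gave 19775 genes.

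Line means of 5 Hodgkin lines of origin (L540 and L540Cy averaged) and 3 others were compared by two-sided tests in limma 3.58.1 (lmFit, eBayes; R 4.3.3). The other comparisons used 1 limma model over the 15 arrays that gave every line its own mean, with 6 residual degrees of freedom. A line with a single array was taken to vary as the duplicated lines do. All p-values were adjusted by Benjamini-Hochberg over all genes, with a threshold of 0.05 and no filter on dim genes. The number of arrays limits the precision. Members, lists and tests were chosen with earlier results of these data known. Genes named in full were the 3 per class with the widest range of line means and, for each line, up to 2 called rises and 2 falls. From related lists, called genes or the 2 with the largest difference were named, with SLBP and NPAT. H1-1, H1-8, H2AC8, H2BC4, H2BC9 and H2BC17, the genes named for a difference between L540 and L540Cy or between duplicates, and POU2AF1 in single lines were named after their values were seen.

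Alternatives changed the treatment of L540, the probe set, the normalization, the filter and the variance model, used the line as a random block, or left out lines or arrays. On simulated data with 200 of 19775 genes changed by 4 log2, the fits recovered 100% (Hodgkin against non-Hodgkin), 99.5% (L540Cy against L540) and 99% (F test), with 18, 9 and 10 false calls. The largest Hodgkin difference of a member was smaller, at 3.94 log2 in H1-2, whose SD among Hodgkin lines was 1.91, and it was not called. The 100% therefore does not show that differences in these members would be found.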

Additional observations from a re-analysis of the deposited data

Results flagged for a closer look

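In 2 members a single Hodgkin line stood apart from the other 4 lines of origin by Dixon's criterion (4% of members, against 10.4% of all genes; chance marks about 1 in 20 groups). H2AC16 was at 6.08 in L540, averaged with L540Cy, with the nearest other line at 4.08. H1-1 was at 6.02 in L428, with the nearest other line at 5.71.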

How the results depend on the processing

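For Hodgkin against non-Hodgkin lines, where 0 members were called, 3 were called with the line as a random block, 2 on the 12 numbered arrays with that block and no replicate number, 1 with genes of mean 6 or above only, and 0 to 3 with a line or array left out (3 without HDLM2, 1 each without replicate 1 of KM-H2, HDLM2 or Namalwa). With the replicate number as a block it was 0. The F test called 12 of 39 members without _x_at and _s_at probe sets, against 46.3% of all genes in that setting. It called 12 of the 14 of mean 6 or above, against 75.9% of all genes in that setting, and 20 to 24 members with an array left out. For the other counts in this paragraph no share over all genes is given. Calls with an array left out were 2 to 8 for L428, 4 to 8 for L1236 (8 without KM-H2 replicate 1), 8 to 13 for KM-H2, 4 to 11 for HDLM2, 4 to 12 for Reh, 6 to 15 for Namalwa and 6 to 11 for SU-DHL-4. L1236 had 10 calls with the replicate block on 12 arrays and 8 on these arrays without it. Without the L540 array, chosen after seeing the data, L1236 had 11, HDLM2 3 and L540 2. The Hodgkin difference changed sign, without a call, for H2AC16 (-0.23 on 12 arrays with or without the replicate block, -0.21 to 0.39 with a line or array left out, the lowest without the line L540, and -0.12 without the L540 array), H3C3 (-0.12 on 12 arrays, -0.0345 to 0.35 with a line or array left out, the lowest without SU-DHL-4, and -0.0479 without the L540 array) and H3C7 (-0.12 on 12 arrays, -0.0838 to 0.70 with a line or array left out, the lowest without SU-DHL-4). The cause was not tested. The other 12 named members kept their direction in every alternative, and L540 stayed highest in 5 of 5 classes in 17 of 17. The deviations of same-numbered arrays correlated at 0.144 to 0.355 in the 10 pairs of lines without Namalwa, and at -0.07 to 0.057 in the 5 pairs with it. The labels tie no batch to the numbers and not every pair passed 0.1, and the fits reported are without the block. Whether a batch shared by number moved the duplicates was not tested. Signals near the background limit what can be said of the 21 members under 6 on every array.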
